A study of Mus musculus with 6 samples.

Results

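Replication-dependent histone genes were followed in mouse NIH/3T3 fibroblasts with and without Mki67, which encodes the proliferation marker Ki-67. The set held every protein-coding gene whose GENCODE M21 symbol starts with Hist1h, Hist2h, Hist3h or Hist4h, which gave 67 of the 54146 gene rows. The rule used symbols and biotypes and no measured value, though the set was chosen with earlier results of these data known. The Hist1 cluster on chromosome 13 held 54 members, Hist2 on chromosome 3 held 10, Hist3 on chromosome 11 held 2 and Hist4 on chromosome 6 held 1. By protein, 6 members encode linker histone H1, 18 encode H2A, 18 H2B, 12 H3 and 13 H4.

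These genes supply the histones that package newly copied DNA, and their mRNAs accumulate while a cell replicates its genome and are destroyed when replication ends. Their transcripts are not polyadenylated in the usual way. They end just after a short hairpin, the histone stem-loop, which is bound by the stem-loop binding protein Slbp and cut with the help of the U7 small nuclear RNA, while the coactivator Npat drives transcription of the clusters. Libraries made from total RNA, as here, count such transcripts, which a poly(A) selection would largely miss.

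All libraries came, per the labels, from NIH/3T3 cells, an immortalised line of embryo fibroblasts of a Swiss albino mouse. The 3 groups were wild-type (WT) cells and 2 Mki67-/- clones, called clone 1 and clone 2, with 2 libraries each. Each knockout group is a single clone, made in a way not given in the sources used here. Within a clone, an effect of the knockout cannot be told apart from other traits of that clone. Labels do not say whether replicates were separate cultures, and p-values then cover only the spread between these libraries, which may be technical. The protocol text names 4T1 cells, a mouse mammary tumour line, in place of NIH/3T3. The 8 fibroblast markers summed to 8535 to 9986 CPM (gene counts scaled to a library total of 1000000) in WT, 6949 to 7282 CPM in clone 1 and 7831 to 7839 CPM in clone 2, while the 7 epithelial markers summed to at most 1.17 CPM, with Epcam, Krt19 and Cldn7 at 0. Blood markers summed to 11.98 to 18.6 CPM with Adgre1 at 0, and endothelial markers to 3.87 to 4.39 CPM in WT and 1.29 to 1.77 CPM in the clones; the part of either in the histone values was not tested. Mki67 itself stood at 46.7 and 53.8 CPM in WT, at 4.27 and 4.71 CPM in clone 1, and at 4.41 and 7.82 CPM in clone 2. Gene counts ranged from 3873249 in WT replicate 1, the shallowest library, to 19678782 in clone 1 replicate 1. In bulk libraries fewer cells in the replicating phase and less histone RNA per cell cannot be told apart.

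The stem-loop was searched in the GENCODE M21 transcripts as a 16-base pattern of a 6-base stem, any 4-base loop and the matching stem, downstream of the coding end. It was found in 46 members, or 68.7%, within 100 bases of the coding end, against 0.0824% of 21834 other protein-coding genes. Some annotated histone transcripts stop before the loop, so a member without a match is not shown to lack one. The lines below give the loop of members to which the results return, each with 5 flanking bases, the loop in capitals and the bases in the sense of the mRNA.
Hist1h4a: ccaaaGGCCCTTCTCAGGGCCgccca
Hist1h4d: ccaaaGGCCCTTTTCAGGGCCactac
Hist4h4: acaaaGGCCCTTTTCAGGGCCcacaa
Hist1h3g: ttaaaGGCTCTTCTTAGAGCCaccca
Hist1h1d: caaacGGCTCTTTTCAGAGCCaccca
Hist1h2bb: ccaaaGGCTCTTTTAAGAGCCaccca
The commonest form, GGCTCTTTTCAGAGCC, occurred in 26 members of the H1, H2A, H2B and H3 classes, and 7 H4 genes carried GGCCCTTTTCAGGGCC. Counted from 1 at the 5′ end of the 16 bases, Hist1h4a (chr13:23760800-23760815 in GRCm38, minus strand) differed from that H4 form by T8C, inside the loop. The only other T8C was in Hist1h3g (chr13:23535889-23535904, plus strand), together with C10T, when set against the commonest form. All other differences lay at loop position C10T or C10A or were the paired stem changes C3T and G14A.

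Histone transcripts made up a smaller share of the gene counts in clone 1 than in WT, while clone 2 overlapped WT. The 67 members summed to 16896 and 12683 CPM in WT, to 10522 and 9573 CPM in clone 1, and to 12440.1 and 14706 CPM in clone 2. Both clone 1 libraries thus lay below both WT libraries, whereas 1 clone 2 library lay above WT replicate 2. The group means were 14789 ± 2979 CPM (WT), 10047 ± 672 CPM (clone 1) and 13573 ± 1602 CPM (clone 2) (SD, n = 2). The same order held for the summed H1, H2B, H3 and H4 genes and for the H2A genes, whose WT and clone 2 means were 1276 and 1272 CPM.

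**Figure D1:**
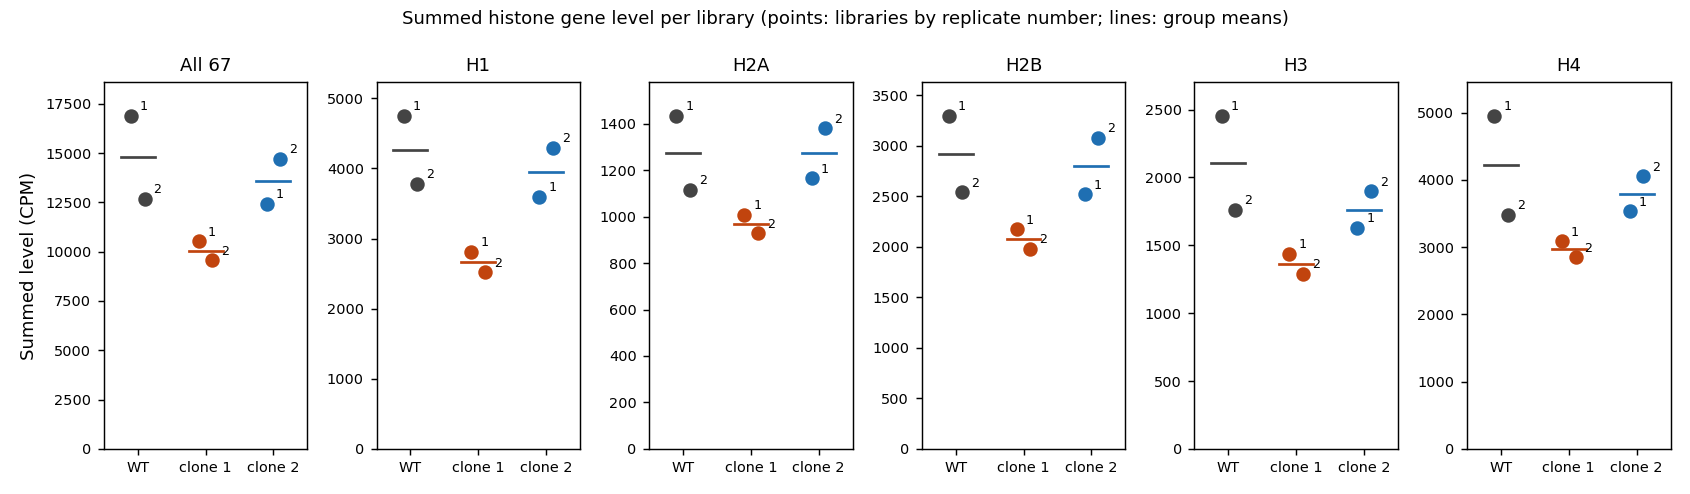
Summed level of the histone genes in each library in CPM, for all 67 members and for each class, with the replicate number beside each point and a line at each group mean. Clone 1 lies below WT in all 6 panels, and clone 2 overlaps WT in each.

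Single genes were tested with edgeR's quasi-likelihood model over 13120 genes, with calls made where the Benjamini-Hochberg adjusted p was below 0.05. Of the 67 members, 56 passed the low-count filter and were tested. For the mean of both clones against WT, 30 members fell and 0 rose, beside 18.2% of all genes called lower and 16.6% called higher. The median log2 fold change of the members was -0.41, against 0.00 over all genes. Against WT, clone 1 had 36 members called lower and 0 higher (all genes 16.5% and 15.2%) and clone 2 had 9 lower and 1 higher (all genes 14.5% and 12.9%). The members' median was -0.63 in clone 1 and -0.21 in clone 2. Both clones were set against the same WT libraries, so the 2 comparisons are not independent.

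These counts depend on single libraries, and histone genes differed in one direction between replicates. WT replicate 2 was lower than WT replicate 1 in 54 of the 56 members, by a median of -0.45 on the log2 scale, while the median over all genes was 0.05. Within clone 1, 52 members were lower in replicate 2 (median -0.14), and within clone 2, 53 were higher in replicate 2 (median 0.24). Without WT replicate 1, 14 members were called lower for the knockout mean and 2 higher; without WT replicate 2, 42 were lower. Leaving out clone 2 replicate 1 gave 19. For clone 1, the count of 36 fell to 20 without its replicate 2. For clone 2, the count of 9 was 3 without WT replicate 1, 28 without WT replicate 2, 1 without clone 2 replicate 1 and 5 without clone 2 replicate 2. Of the 30 members called lower for the knockout mean, 13 were called in all 6 fits that each left out a library. All 4 knockout libraries lay below both WT libraries in 11 of the 56 members, beside 20.5% of all genes, a share close to that background. In 0 members did all 4 lie above (all genes 30.2%).

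**Figure D2:**
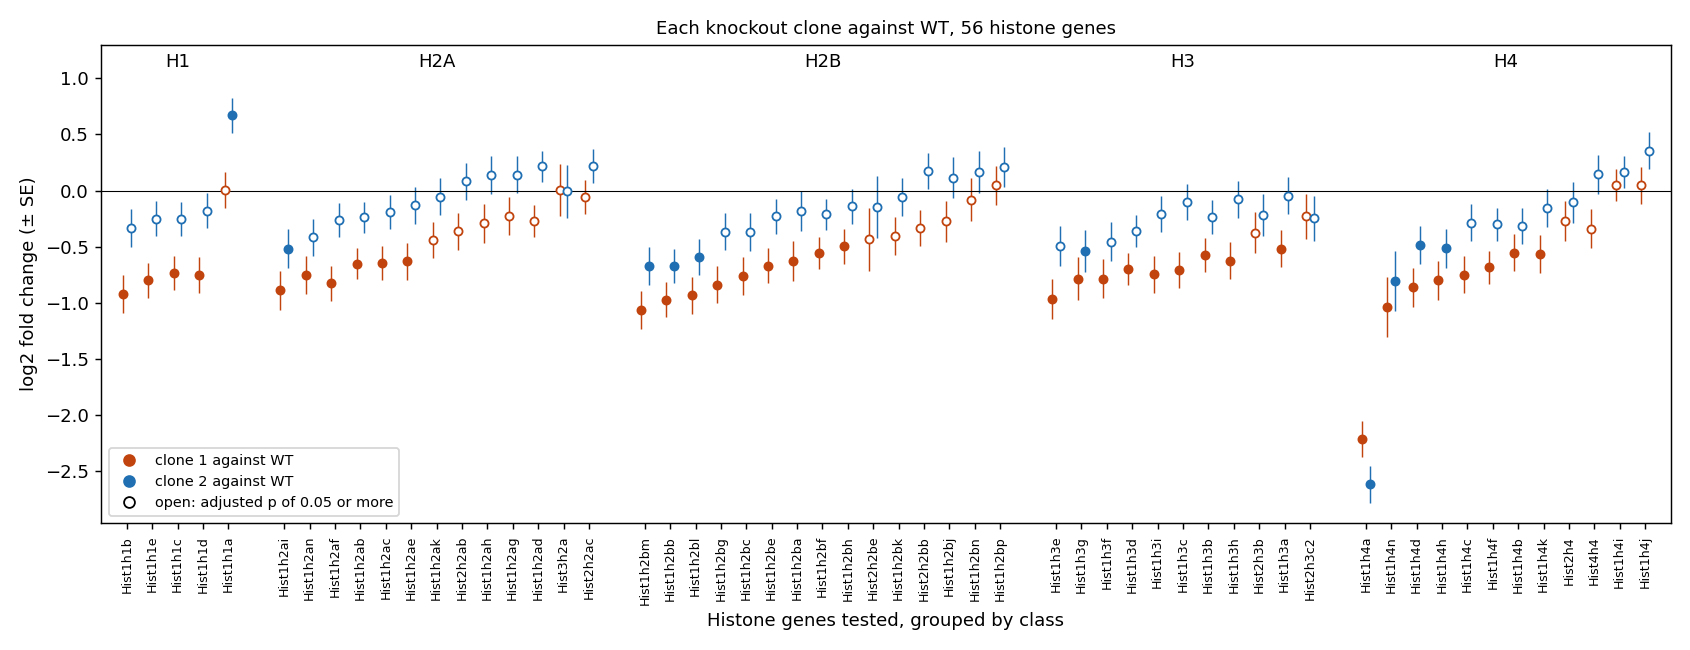
Log2 fold change against WT with its standard error for the 56 histone genes tested, grouped by class and ordered by the knockout mean, clone 1 in orange and clone 2 in blue, filled where the adjusted p is below 0.05. Most clone 1 points lie below 0 and lower than their clone 2 neighbours; scaled to the histone sum, the members' medians are -0.02 in both clones and Hist1h4a alone is called lower.

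Linker histones sit on the DNA between nucleosomes. For the knockout mean 4 of 5 tested fell, beside 18.2% of all genes, and 1 did not. Clone 1 had 4 called lower and clone 2 had 0 (all genes 16.5% and 14.5%). Hist1h1b stood at 1132 and 833 CPM in WT, at 561 and 535 CPM in clone 1, and at 740 and 916 CPM in clone 2. Clone 1 lay below WT and clone 2 overlapped it. The log2 fold change was -0.92 ± 0.17 (SE) in clone 1 (edgeR adjusted p = 0.00116), -0.33 ± 0.17 in clone 2 (adjusted p = 0.164) and -0.63 ± 0.14 for their mean (adjusted p = 0.00416). Hist1h1e fell by 0.53 ± 0.13 on the log2 scale for the knockout mean (edgeR adjusted p = 0.00808), but was not called in clone 2 (-0.25). Hist1h1c (-0.50) and Hist1h1d (-0.47) were also called, but Hist1h1c lost the call without clone 2 replicate 1 (-0.44) and Hist1h1d when WT replicate 1 (-0.28), clone 1 replicate 2 (-0.43) or clone 2 replicate 1 (-0.42) was left out.

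Hist1h1a went the other way. It stood at 208 and 159 CPM in WT, at 208 and 179 CPM in clone 1, and at 283 and 333 CPM in clone 2. The clone 1 values lay within the WT range and both clone 2 values lay above it. It rose in clone 2 by 0.67 ± 0.16 (edgeR adjusted p = 0.0071), a call lost without clone 2 replicate 2 (0.53), and its log2 fold change was 0.00 ± 0.16 in clone 1 (adjusted p = 0.992). Hist1h1a was the 1 member called higher in any comparison with WT. The testis linker histone Hist1h1t was at 0.264 to 0.630 CPM and was not tested.

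H2A and H2B form the dimers on the flank of the nucleosome and are often encoded by divergent gene pairs. For the knockout mean, 5 of 13 H2A genes and 7 of 15 H2B genes tested fell, beside 18.2% of all genes. Called lower were 6 H2A and 9 H2B genes in clone 1, and 1 and 3 in clone 2 (all genes 16.5% and 14.5%). Hist1h2bm stood at 138 and 96.9 CPM in WT, at 59.8 and 57.3 CPM in clone 1, and at 69.0 and 85.2 CPM in clone 2. All knockout libraries lay below both WT libraries, and the knockout mean fell by 0.87 ± 0.14 (edgeR adjusted p = 0.000465). Hist1h2bb stood at 406 and 317 CPM in WT, at 206 and 182 CPM in clone 1, and at 221 and 258 CPM in clone 2, again without overlap. Its fall was -0.82 ± 0.13 (edgeR adjusted p = 0.000299). Hist1h2bl and Hist1h2ai, neighbours at the edge of the cluster, fell by 0.76 ± 0.14 and 0.70 ± 0.15 with the same separation. Only 17.2% and 9.88% of their 50-base transcript windows are unique to them, and with counts that ignore strand Hist1h2ai was no longer called (-0.16).

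The remaining H2A calls were smaller or less firm. Hist1h2af fell by 0.55 ± 0.13 for the knockout mean (edgeR adjusted p = 0.00565), but was not called in clone 2 (-0.27). Hist1h2an (-0.58) lost its call without WT replicate 1 (-0.36) and with unstranded counts (-0.16), and Hist1h2ab (-0.45) lost it without WT replicate 1 (-0.31) or clone 2 replicate 1 (-0.40). The other 8 H2A genes and 8 H2B genes were not called for the knockout mean.

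H3 genes, whose products form the core tetramer with H4, were called lower for the knockout mean in 7 of 11 cases, beside 18.2% of all genes. Clone 1 had 9 called lower and clone 2 had 1 (all genes 16.5% and 14.5%). Hist1h3e had the largest fall among H3 genes for the knockout mean. It stood at 344 and 231 CPM in WT, at 169 and 141 CPM in clone 1, and at 202 and 228 CPM in clone 2. All knockout values lay below WT, clone 2 replicate 2 by little, and the log2 fold change was -0.73 ± 0.15 (edgeR adjusted p = 0.00215). Hist1h3g, the other gene with T8C in its loop, changed by -0.66 ± 0.16 (edgeR adjusted p = 0.00573), lost without WT replicate 1 (-0.29), and Hist1h3f (-0.62) lost its call in the same way (-0.32). Hist1h3b and Hist1h3c (-0.40 and -0.41) were not called leaving out WT replicate 1 (-0.19 and -0.18), clone 1 replicate 2 (-0.38 and -0.39) or clone 2 replicate 1 (-0.36 and -0.34).

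Among H4 genes, which all encode the same core histone, 7 of 12 fell for the knockout mean, beside 18.2% of all genes. Clone 1 had 8 called lower and clone 2 had 4 (all genes 16.5% and 14.5%). Hist1h4a fell by far the most. Hist1h4a (ENSMUSG00000060093, chr13:23760692-23761230, minus strand, 1 exon) stood at 123 and 94.6 CPM in WT, at 25.002 and 24.2 CPM in clone 1, and at 17.3 and 19.9 CPM in clone 2. The groups did not overlap and the replicates within each clone were close. It fell by 2.21 ± 0.16 in clone 1 (edgeR adjusted p = 3.88e-07), and its log2 fold change was -2.62 ± 0.17 in clone 2 (adjusted p = 1.38e-07) and -2.41 ± 0.13 for their mean (adjusted p = 1.33e-08). The clones differed by -0.41 ± 0.16 (edgeR adjusted p = 0.223). Leaving out any 1 library gave -2.61 to -2.21, and DESeq2 gave -2.43. Scaled to the summed counts of the histone members, an alternative chosen after seeing the data, Hist1h4a still fell, by 2.01.

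Other H4 genes moved far less than Hist1h4a. Hist1h4d, the most abundant Hist1 gene per coding length, stood at 1192 and 845 CPM in WT, at 617 and 567 CPM in clone 1, and at 706 and 834 CPM in clone 2. The groups did not overlap, and the knockout mean changed by -0.67 ± 0.15 (edgeR adjusted p = 0.00292). Hist1h4b, the neighbour of Hist1h4a, stood at 278 and 196 CPM in WT, at 174 and 165 CPM in clone 1, and at 188 and 214 CPM in clone 2. Clone 2 overlapped WT there. Hist1h4n changed by -0.92 ± 0.23 at only 5.13 to 14.97 CPM, a call lost without WT replicate 1 (-0.51). Hist1h4i and Hist1h4j were not called, at 0.11 ± 0.12 and 0.20 ± 0.15.

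**Figure D3:**
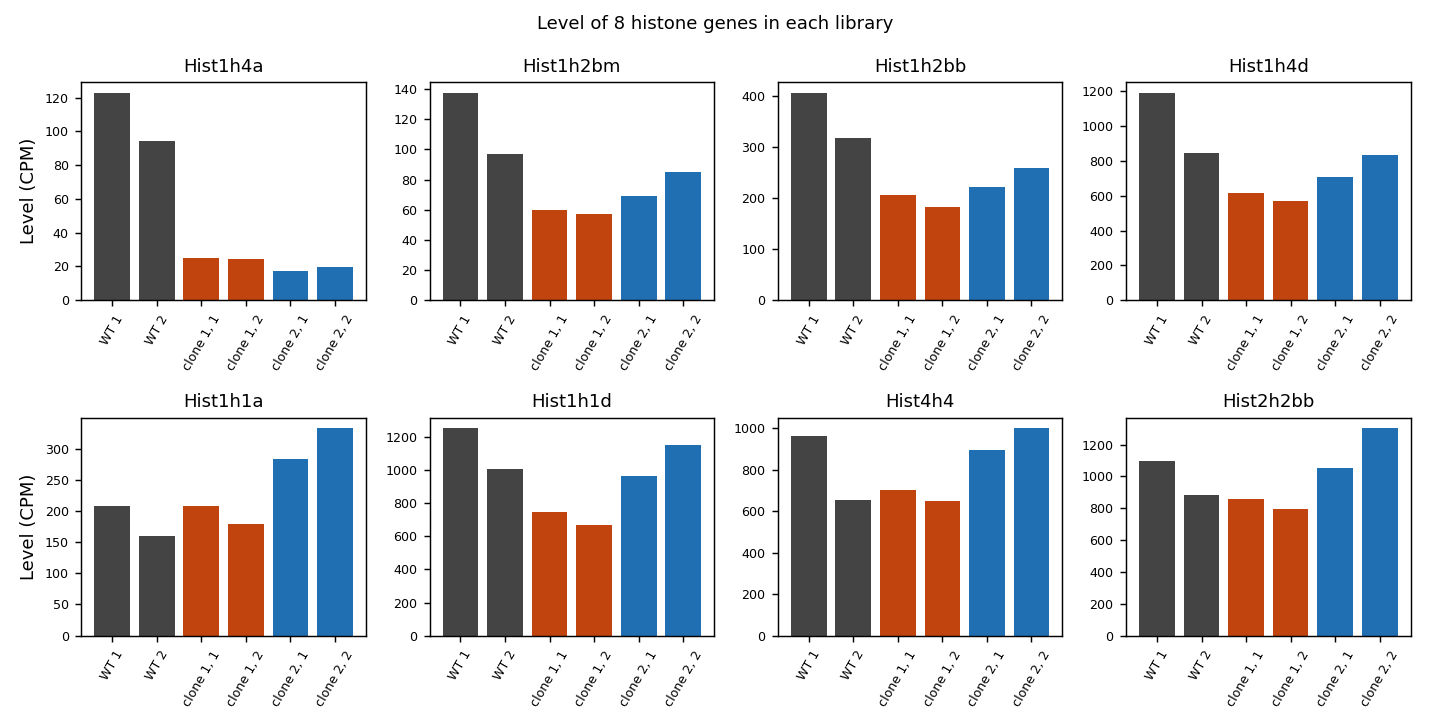
Level in CPM of 8 histone genes in each of the 6 libraries, with bars from 0, WT in grey, clone 1 in orange and clone 2 in blue. Hist1h4a is at 94.6 CPM or more in WT and between 17.3 and 25.002 CPM in the knockout libraries, while clone 2 overlaps WT in Hist4h4 and Hist2h2bb.

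All 30 members called lower for the knockout mean were in Hist1 on chromosome 13, out of 47 tested there. Called lower in that comparison were 18.2% of all genes and 33.0% of the other genes tested on chromosome 13. These shares stand beside each count by stretch below. Hist1 falls into 4 stretches where gaps above 150000 bases divide it. The first (chr13:21715763-21837530) had 7 of 13 tested members called lower, with a median log2 fold change of -0.48 for the knockout mean. The second (chr13:22035164-22043676), with Hist1h2ah, Hist1h2bk, Hist1h4i, Hist1h2ag and Hist1h2bj, had 0 of 5, with a median of -0.08 (-0.27 in clone 1 and 0.14 in clone 2). The third (chr13:23531050-23764406) had 23 of 28, with a median of -0.49, and ran from Hist1h4h to Hist1h1a. Differences between stretches were not tested. The last (chr13:23933773-23934851) holds the testis genes Hist1h2ba and Hist1h2aa, of which Hist1h2ba was tested and not called (-0.40). In the third stretch Hist1h4a, with the largest fall, and Hist1h1a, at 0.34 for the knockout mean (edgeR adjusted p = 0.0763) and called higher in clone 2 alone, are separated by Hist1h3a, which was at -0.28 ± 0.14 (edgeR adjusted p = 0.141).

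**Figure D4:**
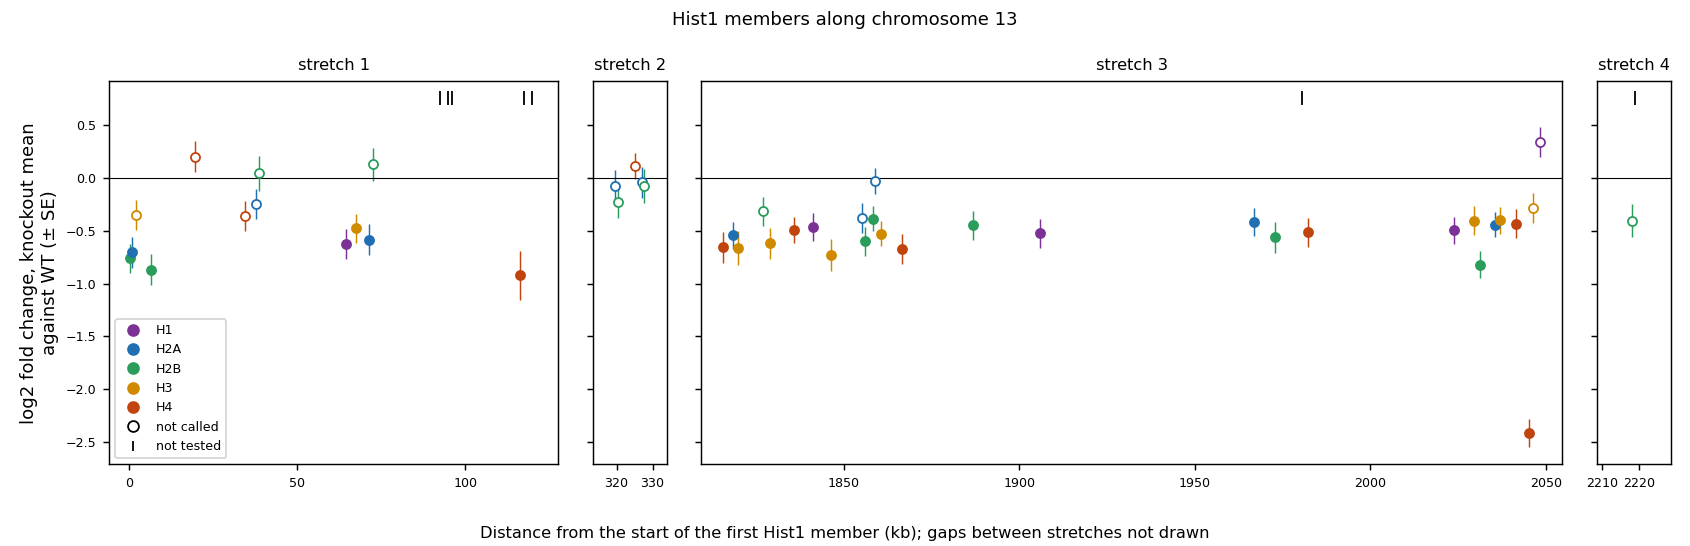
Log2 fold change of the knockout mean against WT with its standard error for Hist1 members by distance in kb from the start of the first member, coloured by class, open where not called, with ticks at the top for members not tested. The 5 genes of stretch 2 lie near 0, and Hist1h4a lies far below its neighbours at the end of stretch 3.

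Other genes of chromosome 13 were also lower in the clones. Of 463 tested there that are not members, 153 were called lower for the knockout mean, 33.0% beside 18.2% of all genes, with a median log2 fold change of -0.28. In clone 1 the Hist1 median of -0.68 was lower than the median of -0.28 for other chromosome 13 genes. In clone 2 the Hist1 median of -0.23 was close to theirs, -0.25. Other genes in the first 30 Mb, which hold Hist1, had a median of -0.20 for the knockout mean. By contrast, other genes of chromosome 3, home of Hist2, had a median of 0.15. The part of such chromosome-wide shifts in the Hist1 values was not tested. Among 6 tested genes lying between the first and the last Hist1 member, 2 rose and 3 fell, beside 16.6% and 18.2% of all genes. The butyrophilin genes Btn1a1 and Btn2a2 rose by 1.79 ± 0.51 and 1.90 ± 0.59 (edgeR adjusted p = 0.0154 and 0.0235). These rises rest on few reads, with 2 or 3 counts of each gene in each WT library. In WT Btn1a1 was at 0.516 and 0.264 CPM and Btn2a2 at 0.516 and 0.176 CPM. Their highest knockout values were 1.68 and 1.22 CPM. Both calls were lost without WT replicate 2 (1.14 and 0.93) and with DESeq2 (1.75 and 1.82), that of Btn1a1 also with unstranded counts (1.103) and that of Btn2a2 without clone 2 replicate 2 (1.73). Hfe, an iron regulator within the third stretch (chr13:23702034-23710854), changed by -3.45 ± 0.44 from 3.61 and 5.01 CPM in WT (edgeR adjusted p = 4.83e-05). Zfp184 was called at -0.86 ± 0.30 (edgeR adjusted p = 0.0395), lost without WT replicate 2 (-0.029), clone 1 replicate 1 (-0.71), clone 2 replicate 1 (-0.82) or clone 2 replicate 2 (-0.88), with DESeq2 (-0.77) and with library totals (-0.78).

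**Figure D5:**
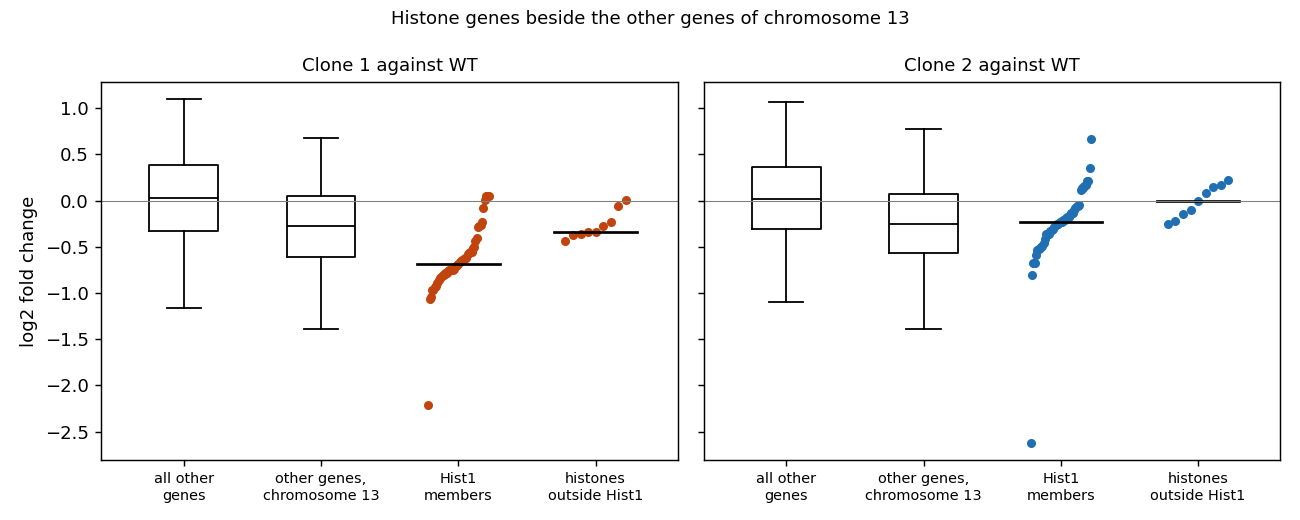
Log2 fold change against WT in each clone for tested genes that are neither members nor on chromosome 13, other genes of chromosome 13 (boxes: quartiles and median, whiskers: 5th to 95th percentile), Hist1 members and histone genes outside Hist1 (points, with a line at the median). Hist1 members lie below other chromosome 13 genes in clone 1, with medians of -0.68 and -0.28, and level with them in clone 2, with medians of -0.23 and -0.25.

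Histone genes outside Hist1 were not called in any of the 4 comparisons. Of 13 such members 9 were tested, with medians of -0.14 for the knockout mean, -0.34 in clone 1 and -0.01 in clone 2. Hist4h4 stood at 965 and 655 CPM in WT, at 701 and 652 CPM in clone 1, and at 894 and 1001 CPM in clone 2. Hist2h2bb stood at 1094 and 881 CPM in WT, at 855 and 798 CPM in clone 1, and at 1049.6 and 1303 CPM in clone 2. In both genes clone 2 overlapped WT and lay above clone 1. Clone 1 overlapped WT in Hist4h4 and lay below it in Hist2h2bb. Their log2 fold changes for the knockout mean were -0.10 ± 0.15 and -0.08 ± 0.14, and both were positive without WT replicate 1 (0.23 and 0.10). Hist2h2ac, the only member of the 9 with a positive value, was at 0.08 ± 0.13, and Hist2h4, Hist2h2ab and Hist2h3b were at -0.19, -0.14 and -0.30. Hist2h3c2, Hist2h2be and Hist3h2a were low, at 3.05 to 8.09 CPM. Whether Hist1 and the other loci differ in response was not tested.

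Per length of coding sequence the supply of transcripts was uneven. Hist2h2bb had the highest mean level over the 6 libraries, 2637 CPM per coding kb, followed by Hist4h4 with 2626 and Hist1h4d with 2568 CPM per coding kb. These 3 did not differ beyond their spread between libraries. Among the linker genes Hist1h1d, Hist1h1e, Hist1h1b and Hist1h1c were at 1457, 1407, 1175 and 1135 CPM per coding kb. The median of the 56 tested members was 372 CPM per coding kb, and the lowest was Hist2h2be with 9.76. Coding length leaves out untranslated parts, and reads that fit several copies were not counted, so levels of genes with near-identical copies are too low by an unknown amount.

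The composition of the histone pool shifted for a few genes. Hist1h4a made up 0.727% and 0.746% of all member counts in WT, 0.238% and 0.253% in clone 1 and 0.139% and 0.135% in clone 2. Hist1h1a made up 1.23% and 1.26% in WT, 1.98% and 1.87% in clone 1 and 2.27% in both libraries of clone 2. In these shares the replicates of each group lay close together and the 3 groups did not overlap. With counts scaled to the member sum, Hist1h1a, Hist1h4i, Hist1h4j and Hist2h2ac rose and Hist1h4a alone fell, and 29 of the 30 lower calls were lost; in that scaling 18.5% of all genes were called higher and 3.89% lower, and the median over all genes moved to 0.38.

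The 11 members that were not tested had at most 10 counts in any library. Hist1h2bq, Hist1h2ao, Hist1h4m, Hist2h2aa1 and Hist2h3c1 had 0 counts in all 6 libraries, where 3 counts correspond to 0.152 to 0.775 CPM. Hist2h2aa2, with 0 counts in WT and at most 0.133 CPM elsewhere, has 0% of 50-base windows that are unique among GENCODE transcripts. Hist1h2ap and Hist1h2br have 6.93% and 11.3%. For such copies a low value cannot be told apart from reads that matched several genes, which made up 28.3% to 30.3% of reads. Among the genes at 0 counts, Hist2h3c1 has 65.3% unique windows, while the others have 2.68% to 10.2%. The testis genes Hist1h1t and Hist1h2aa are unique in 100% and 97.7% of their windows and stayed at or below 0.775 CPM. Among the 15 tested members with at least 80% unique windows, 8 were called lower, with a median of -0.42, close to the median of all tested members.

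Promoters were taken from RefSeq for 62 of the 67 members (GRCm38.p6), and the 250 bases before the start were searched on both strands for 4 motifs. TATAAA occurred in 46.8% of member promoters and 12.4% of all 32851 promoters, and CCAAT in 82.3% and 33.8%. ATTTGCAT, the octamer, occurred in 43.8% of H2B and 38.9% of H2A promoters, against 1.6% of all. AAACACA, known from linker histone promoters, occurred in 5 of 6 H1 promoters and in 6.25% of all; the H1 promoter without it was that of Hist1h1a. The last 150 bases before the start are shown for Hist1h1a, Hist1h1b and Hist1h4a. For the knockout mean Hist1h1b had the largest fall among H1 genes and Hist1h4a the largest of all members, while Hist1h1a rose in clone 2. Capitals mark matches to these motifs on either strand.
Hist1h1a: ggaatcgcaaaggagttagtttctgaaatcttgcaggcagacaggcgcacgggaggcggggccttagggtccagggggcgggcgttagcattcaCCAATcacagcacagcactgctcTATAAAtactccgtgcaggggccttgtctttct
Hist1h1b: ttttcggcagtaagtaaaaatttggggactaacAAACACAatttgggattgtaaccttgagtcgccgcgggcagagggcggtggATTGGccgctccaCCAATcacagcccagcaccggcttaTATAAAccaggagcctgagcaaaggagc
Hist1h4a: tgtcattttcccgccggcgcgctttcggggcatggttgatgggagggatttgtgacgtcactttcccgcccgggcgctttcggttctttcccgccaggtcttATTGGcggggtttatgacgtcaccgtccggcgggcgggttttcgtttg
Their positions are chr13:23763518-23763667 (plus strand), chr13:21780626-21780775 (minus strand) and chr13:23761250-23761399 (minus strand). Called and uncalled members both carried each motif: of tested members 15 of 26 with TATAAA and 13 of 25 without it were called lower, as were 24 of 42 with CCAAT and 4 of 9 without it. With ATTTGCAT 6 of 13 were called, and without it 22 of 38. With AAACACA 6 of 7 were called, 4 of these being the H1 genes described above, and without it 22 of 44. Among all genes tested, 18.2% were called lower.

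The commonest loop forms were likewise spread over both outcomes, beside 18.2% of all genes called lower. Of tested members 11 of 20 with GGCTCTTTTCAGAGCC, 5 of 6 with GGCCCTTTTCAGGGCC and 4 of 5 with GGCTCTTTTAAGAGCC were called lower, and 0 of 2 with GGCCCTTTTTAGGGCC, which are Hist2h4 and Hist1h4i. The T8C forms of Hist1h4a and Hist1h3g were each in 1 tested member, which was called lower. The form of Hist2h2ac was in 1, not called, and that shared by Hist1h4j and Hist1h4b had 1 of 2 called lower. Forms held by 1 or 2 tested members are too few to compare. An AATAAA hexamer, the usual polyadenylation signal, stood in the last 50 bases of the annotated transcript in 14 members. Of these, 9 were tested and 2 called lower, Hist1h4a among them, and their median log2 fold change was -0.19. The 9 include Hist2h2be, Hist2h4, Hist4h4 and Hist3h2a from outside Hist1, where no member was called. The part of the locus in this median was not tested.

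Of 14 tested genes for the making and ending of histone mRNA, on a list of 15, 3 rose and 3 fell for the knockout mean, shares near the 16.6% and 18.2% of all genes called higher and lower. Cpsf2, a partner of the nuclease that cuts histone pre-mRNA, stood at 24.8 and 37.4 CPM in WT, at 64.7 and 89.8 CPM in clone 1, and at 73.2 and 66.1 CPM in clone 2. It rose by 1.12 ± 0.17 (edgeR adjusted p = 0.000226) without overlap. Npat rose by 0.70 ± 0.20, lost without WT replicate 1 (0.48), and Eri1, an exonuclease that trims histone mRNA ends, was at 0.71 ± 0.24, lost on leaving out WT replicate 1 (0.36), clone 1 replicate 2 (0.54) or clone 2 replicate 1 (0.62) and with DESeq2 (0.80). Sympk, the scaffold of the cleavage complex, fell by 0.72 ± 0.11 and Lsm10, a protein of the U7 particle, by 0.62 ± 0.14. Upf1, a helicase of histone mRNA decay, was called at -0.40 ± 0.12, lost when WT replicate 1 (-0.25), clone 1 replicate 2 (-0.36), clone 2 replicate 1 (-0.41) or clone 2 replicate 2 (-0.42) was left out. The U7 RNA gene Rnu7 (chr6:124741225-124741286) was at 0 in all libraries. Whether these libraries capture so short an RNA was not tested, so the 0 does not show that U7 is absent. Slbp itself was at 0.32 ± 0.13 (edgeR adjusted p = 0.0612), at 45.2 and 52.2 CPM in WT and 56.2 to 69.5 CPM in the clones.

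Genes on the list of replication-independent variants gave 1 rise and 3 falls among 11, again beside 16.6% and 18.2% of all genes. H1f0, a linker variant of resting cells, rose by 0.44 ± 0.12, a call lost without clone 2 replicate 1 (0.42), and H2afj and H2afv fell by 0.85 ± 0.13 and 0.46 ± 0.12. Among 16 histone chaperones and carriers 4 rose and 3 fell, beside the same shares of all genes. Atrx (1.08 ± 0.20) and Supt16 (0.87 ± 0.18) led the rises, and Hira (-0.64 ± 0.16) and Ipo4 (-0.63 ± 0.14) the falls. Of 18 genes of S-phase entry and DNA synthesis 5 rose and 1 fell, beside 16.6% and 18.2% of all genes. Tk1 and Rrm2, which make DNA precursors, rose by 0.54 ± 0.12 and 0.48 ± 0.12, Rrm2 losing its call without WT replicate 2 (0.33). Rrm2 was at 0.72 in clone 1 but was not called in clone 2 (0.23). Summed, the 18 genes stood at 2894 and 2568 CPM in WT, at 3392 and 3182 CPM in clone 1, and at 3283 and 3189 CPM in clone 2. All 4 knockout sums lay above both WT sums, a pattern that 30.2% of all genes showed singly. The sums leave out the size factors used in the fits, which were 0.951 and 0.976 in WT and 1.007 to 1.028 in the clones. How the level of these genes relates to the histone sum was not tested.

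The clones differed from each other in 2 members. Between them, 2 members were higher in clone 2 and 0 lower, beside 1.18% and 2.36% of all genes, and the members' median difference was 0.38 on the log2 scale against 0.01 over all genes. Positive differences occurred in 53 of the 56 members. Hist1h1a differed by 0.67 ± 0.16 (edgeR adjusted p = 0.0300) and Hist1h3c by 0.61 ± 0.16 (adjusted p = 0.0492). Hist1h3c stood at 93.6 and 87.7 CPM in clone 1, at 124 and 153 CPM in clone 2, and at 161 and 121 CPM in WT. Both calls were lost when any 1 of the 4 knockout libraries was left out (0.53 to 0.78 for Hist1h1a, 0.44 to 0.75 for Hist1h3c). Without a WT library, 31 or 32 members were called higher in clone 2.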

How the data were processed

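RNA depleted of ribosomal RNA was made into strand-specific total RNA libraries, per the labels' protocols. Per the submitters' processing notes, FastQC and STAR 2.6.0c were run, with genome build GRCm38. What the authors deposited are unnormalised counts of reads for each Ensembl gene in 3 columns, by strand; the gene annotation behind them was not given in the sources used here. Counts of the reverse strand entered all main results. Rows naming no gene held 46.6% to 50.5% of reads and stayed out of library sizes. Reads with several hits were not counted to genes. CPM are counts scaled to a gene count total of 1000000.

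Genes were named with GENCODE M21 (54079 of 54146 identifiers matched). They were filtered with filterByExpr (minimum count 10), scaled by TMM (factors 0.951 to 1.03) and fitted with edgeR 4.0.16 in R 4.3.3, with 1 coefficient per group, all 6 libraries and 3 residual degrees of freedom. Contrasts set the mean of the clones and either clone against WT, and the clones against each other. Adjusted p-values are Benjamini-Hochberg over 13120 genes. SE is the log2 fold change divided by the root of F. DESeq2 1.42.0 was an alternative. Replicates differed by more than sampling noise (chi-square per degree of freedom 12.5 to 20.1). The steps were tested on simulated data.

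The members and gene lists were chosen with earlier results of these data known. Genes named are, by a written rule, Mki67, the largest changes and most abundant members of each class and locus, and up to 2 list genes per direction. The neighbours Hist1h4b, Hist1h3a and others named in passing were chosen after their values were seen, as was the comparison with other chromosome 13 genes. A list gene that this rule would name is not reported here.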

Additional observations from a re-analysis of the deposited data

Results flagged for a closer look

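Clone 2 and clone 1 differed by edgeR's quasi-likelihood test for 2 histone genes. With a single clone in each knockout group, a differing effect of the knockout cannot be told apart from other differences between the clones. For Hist1h1a the log2 fold change against WT was 0.67 higher in clone 2 than in clone 1 (edgeR adjusted p = 0.0300), with both clone 2 libraries above both clone 1 libraries. For Hist1h3c it was 0.61 higher (adjusted p = 0.0492), again with both clone 2 libraries above both clone 1 libraries. Neither call held without any 1 of the 4 knockout libraries. Groups of 2 libraries are too small for a check of single outlying samples.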

How the results depend on the processing

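Alternatives were DESeq2 with its own test, RLE size factors, no low-count filter, a minimum count of 30, unstranded counts, library totals without TMM, a replicate block, each library left out, and, chosen after seeing the data, scaling to the sum of the histone members. The count of members called higher for the knockout mean was 1 with no filter, with library totals and with the replicate block, and 4 scaled to the histone sum; it was 0 to 2 with a library left out. The count called lower was 1 scaled to the histone sum and 14 to 42 with a library left out. In clone 1, 4 rose and 1 fell scaled to the histone sum, and 20 to 46 fell with a library left out. In clone 2, 2 rose with no filter and 0 to 7 with a library left out, while 4 fell with library totals, 1 scaled to the histone sum and 1 to 28 with a library left out. Between clones the count higher was 1 with RLE factors, a minimum count of 30, unstranded counts or library totals, 5 with DESeq2, 14 with no filter, 9 with the replicate block, 0 scaled to the histone sum and 0 to 32 with a library left out. With the replicate block 34 members fell for the knockout mean, 38 in clone 1 and 11 in clone 2. Same-numbered libraries deviated with correlations of 0.27 (WT and clone 1), -0.09 (WT and clone 2) and -0.11 (the clones). With 2 libraries per group these values cannot settle whether the numbers pair the libraries. With no filter the median over all genes was 0.15 for the knockout mean.

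Log2 fold changes of the knockout mean changed sign as follows. Scaled to the histone sum they were 0.012 for Hist1h3b (0.057 in clone 1), 0.0050 for Hist1h3c, 0.26 for Hist2h2ab, 0.33 for Hist2h2bb, 0.059 for Hist2h2be, 0.13 for Hist2h3b and Hist2h3c2, 0.25 for Hist2h4, 0.34 for Hist4h4, 0.35 for Hist3h2a, 0.19 for Nelfe and 0.0024 for Upf1. With a library left out they ranged from -0.36 to 0.071 for Hist2h2ab, -0.12 to 0.30 for Hist2h2ac, -0.24 to 0.10 for Hist2h2bb, -0.61 to 0.076 for Hist2h3b, -0.49 to 0.18 for Hist2h4, -0.36 to 0.23 for Hist4h4, -0.094 to 0.077 for Hist3h2a, -0.025 to 0.45 for Casp8ap2 and -0.022 to 0.055 for Srrt. Hist3h2a was also 0.045 with no filter, 0.022 with unstranded counts, 0.072 with library totals and 0.023 with the replicate block. The cause of these changes was not tested, apart from the histone sum, which removes any common shift by construction. WT replicate 1 is the shallowest library, with 3873249 counts.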
